A study of Bos taurus with 8 samples.

Results

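The genes described here are 8 secreted regulators of Wnt signalling: the ligands WNT5A (ENSBTAG00000020221) and WNT2B (ENSBTAG00000014291), the agonist RSPO3 (ENSBTAG00000008121), the secreted frizzled-related proteins SFRP1 (ENSBTAG00000027625), SFRP2 (ENSBTAG00000018563), SFRP4 (ENSBTAG00000015366) and FRZB (ENSBTAG00000010977), and the Dickkopf family member DKK3 (ENSBTAG00000004275). They were chosen by gene symbol among the 21880 genes of the count matrices, of which 16828 carry a symbol, and all 8 were found. The cells came from 10 Belgian Blue cattle, whose semitendinosus muscle had been digested with collagenase, and were profiled by droplet single-cell RNA sequencing either fresh (muscle), after 72 h of culture (P0), or after passages 2, 5 and 8 (P2, P5 and P8), always in a serum-free growth medium in vitro. From P2 on, the cultures of donors 1, 2 and 9 had been left unsorted and were grown on fibronectin, those of donors 5, 6 and 10 had been sorted for satellite cells (SC cultures, on a recombinant laminin), and those of donors 4, 7 and 8 had been sorted for fibro-adipogenic progenitors (FAP cultures, on collagen I). Donor 3 was present in muscle only. According to the study's methods, the animals were calves and adults of both sexes. Each culture type therefore had its own donors and its own coating, and these cannot be told apart. The donors were pooled before each run, so each timepoint is 1 library, and timepoint and library cannot be told apart either.

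Wnt ligands bind frizzled receptors and act either through stabilised beta-catenin, together with the co-receptors LRP5 and LRP6, or through ROR and RYK receptors and the planar polarity proteins. R-spondins such as RSPO3 bind LGR receptors and keep frizzled receptors at the cell surface, which strengthens the response to a Wnt ligand. Secreted frizzled-related proteins carry a frizzled-like domain that binds Wnt ligands outside the cell, and DKK3 is the divergent member of a family of extracellular Wnt antagonists. In skeletal muscle, Wnt signals act on satellite cells (SCs), the stem cells of the muscle fibre, during activation and differentiation, and the interstitial fibro-adipogenic progenitors (FAPs) are known as a source of such extracellular signals.

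After the cell filters there were 4395 cells in muscle, 9591 at P0, 8966 at P2, 10405 at P5 and 2772 at P8, with a median of 4184 unique molecular identifiers (UMIs) per cell in muscle and between 18340 and 27240 at the later timepoints. Any pair of libraries had 4 to 29 cell barcodes in common. Each cell carries its deposited cell type, and the types had been drawn from clusters of the expression data that are also used here. The FAP markers PDGFRA, DCN, LUM and DPT were highest in FAPs at every timepoint, 4 of 4 in culture and 3 of 4 in muscle, where DCN was higher in tenocytes. Of 5 SC markers, 3 were highest in SCs in muscle and at P0, and 5 from P2 on. The level of a gene is given as UMI counts per 1000000 UMIs (CPM) of a pseudobulk, the summed counts of 1 donor's cells of 1 type at 1 timepoint (at least 10 cells), and a mean ± SD is over donors.

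In fresh muscle, among types with pseudobulks of several donors, WNT2B and SFRP4 were highest in FAPs and SFRP2 in smooth muscle and mesenchymal cells (SMMCs). WNT2B, a ligand of the beta-catenin branch, had a level in muscle FAPs of 39.3 CPM in the lowest donor, 62.8 at the median and 113 in the highest. FAPs held 514 WNT2B UMIs in all, a pooled level of 66.6 CPM, and SCs held 1. Vascular endothelial cells (VECs) held 17, a pooled level of 4.16 CPM, of which 12 came from donor 7, and the level without that donor was 1.37 CPM. Lymphocytes held 5 (5.33 CPM), all from donor 6. The 51 neutrophils held 3 WNT2B UMIs (30.4 CPM, Poisson interval 6.26 to 88.8), all in the 6 cells of donor 10. This was 45.6% of the pooled FAP level, in cells that also held DCN at 24.8% and PDGFRA at 46.8% of it, and the part of FAP RNA was not tested. WNT5A, the ligand most often tied to beta-catenin-independent signalling, ranged from 3.49 to 18.4 CPM in muscle FAPs (median 9.70) and from 0 to 22.1 CPM in muscle SCs (median 2.63). The donor ranges of WNT5A in these types overlapped. RSPO3 was found in muscle FAPs with 64 UMIs, from 0 to 33.6 CPM over donors with a median of 3.63, and donor 10 was the highest. No RSPO3 UMI was found in muscle SCs, which allows a level of up to 1.07 CPM, nor in VECs, lymphatic endothelial cells (LECs), macrophages or SMMCs, while the myocytes held 5 and the tenocytes 3. With few cells in these small types, their pooled levels of 30.1 CPM (Poisson interval 9.77 to 70.2) and 21.1 CPM (4.36 to 61.8) were above the 8.29 CPM of FAPs. All 3 tenocyte UMIs came from donor 5, and 3 of the 5 myocyte UMIs from donor 7.

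SFRP4 ranged from 271 to 1067 CPM in muscle FAPs (median 620) and from 0 to 52.0 CPM in muscle SCs (median 4.68), without overlap. The tenocytes, with 23 cells in all and too few per donor for pseudobulks, had a pooled SFRP4 level of 2882 CPM from 409 UMIs (exact Poisson 95% interval 2609 to 3175, for counting error only). SFRP2 had its highest level over donors in SMMCs rather than FAPs. In SMMCs, the contractile and perivascular cells, it ranged from 50.9 to 249 CPM with a median of 99.98, and in FAPs from 25.9 to 96.8 CPM with a median of 41.8. The donor ranges of SMMCs and FAPs overlapped for SFRP2, and no test was made of this difference. Of the muscle SMMCs thinned to 2000 UMIs per cell, 23.9% had an SFRP2 UMI (32.3% of all SMMCs without thinning), against 7.76% of the FAPs (17.1% without thinning). The pooled level in muscle SMMCs was 255% of that in FAPs for SFRP2 and 0.882% for the FAP marker DCN; the part of free RNA was not tested.

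SFRP1 ranged from 26.4 to 134 CPM in muscle FAPs (median 79.9) and from 0 to 6.66 CPM in muscle SCs (median 2.75). The 12 glial cells of muscle had 31 SFRP1 UMIs, a pooled level of 774 CPM (Poisson interval 526.0 to 1099), above every FAP donor, though from few cells. The neutrophils had 10 SFRP1 UMIs and 101.2 CPM (48.6 to 186), of which 8 were in donor 4, and LECs had 25 and 56.5 CPM (36.6 to 83.4), against a pooled 66.9 CPM in FAPs. Of the LEC UMIs, 14 were in 3 cells of donor 2. FRZB, also known as sFRP3, was low in muscle FAPs, with 25 UMIs and donor levels of 0 to 7.39 CPM (median 3.44). Its pooled level was above the highest FAP donor in the glial cells, with 3 UMIs and 74.9 CPM (Poisson interval 15.5 to 219), and in the 45 myocytes, with 4 UMIs and 24.1 CPM (6.56 to 61.6). Both rested on single donors: 2 of the glial UMIs were in 1 cell of donor 7, which also held 114 DCN UMIs, and 3 of the myocyte UMIs were in 5 cells of donor 10. Lymphocytes held 4 FRZB UMIs in 3 of 10 donors, at up to 36.9 CPM with a median of 0. Their pooled level was 4.27 CPM (Poisson interval 1.16 to 10.9), against 3.24 CPM (2.09 to 4.78) in FAPs. DKK3 was spread over several types in muscle. It ranged from 19.8 to 67.4 CPM in FAPs (median 31.8), from 12.8 to 81.4 CPM in SMMCs (median 37.8) and from 0 to 125 CPM in LECs (median 60.7), and these ranges overlapped. In muscle SCs it ranged from 0 to 25.1 CPM with a median of 6.15. The highest pooled levels of DKK3 in muscle were in small types without pseudobulks, at 249.8 CPM in glial cells (10 UMIs, Poisson interval 119.8 to 459) and 176 CPM in tenocytes (25 UMIs, 114 to 260.0), while the myocytes held 1 UMI. These levels rested largely on single donors: 9 of the glial UMIs came from 5 cells of donor 4, and 15 of the tenocyte UMIs from 9 cells of donor 5. The heat map of mean levels shows that the 8 genes did not share 1 pattern over types and timepoints.

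**Figure D1:**
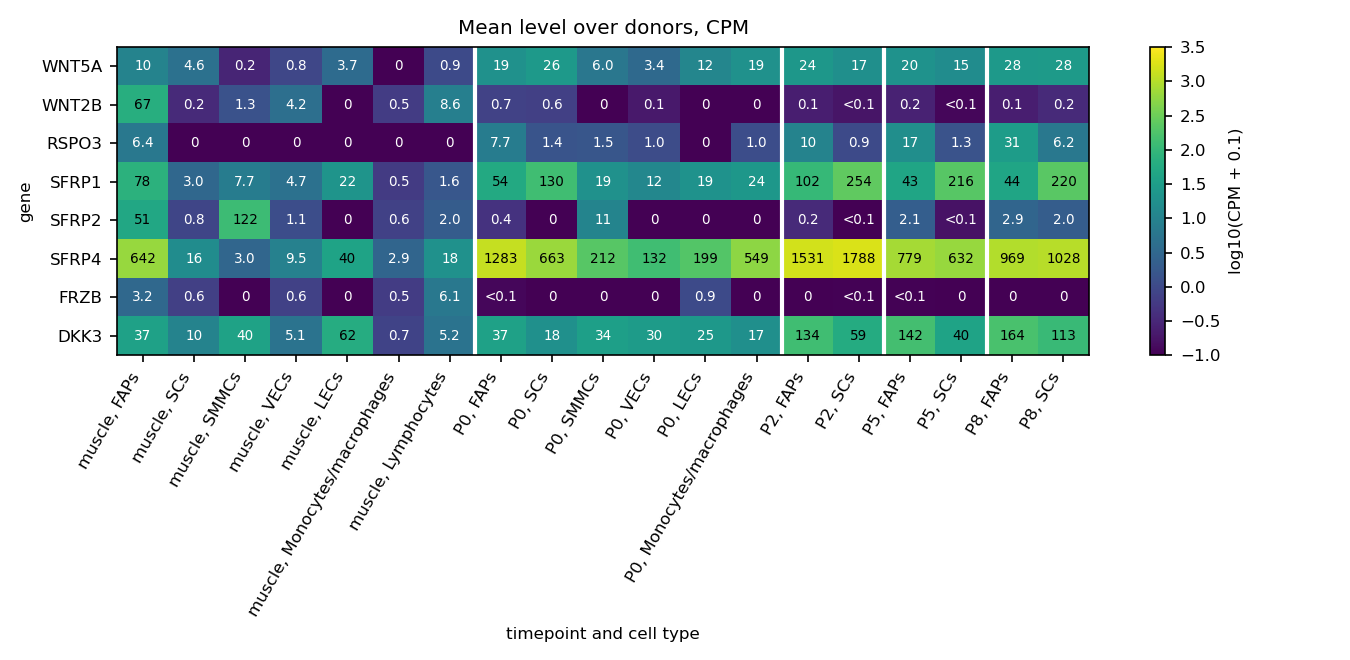
Mean level over donors (CPM, colour on a log scale) of the 8 genes (rows) in the 19 combinations of cell type and timepoint with pseudobulks (columns). Among these columns WNT2B was highest in the FAPs of muscle and SFRP2 in the SMMCs of muscle, and SFRP4 was found in every type from P0 on.

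The first comparison asked how the level of each gene in a cell type differed between fresh muscle and cells cultured for 72 h. In FAPs, 43.4% of the 9208 genes tested were called, that is, changed by more than 1 on the log2 scale in either direction with an adjusted p below 0.05 by edgeR's quasi-likelihood test. Of the 7 members tested, 3 were called: WNT2B and SFRP2 fell and SFRP4 rose. The share of members called was close to that of all genes. A gene near 0 in one group passes the filter on low counts only through the group where it is high, as WNT2B and SFRP2 did through muscle, so that its direction was fixed by being tested. The same holds in the other comparisons wherever one group is near 0, and counts of members tested that moved one way are then no result about the members.

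WNT2B was nearly lost from FAPs. After 72 h its level was 0.181 CPM in the lowest donor, 0.564 at the median and 1.51 in the highest, so that the highest P0 donor was below the lowest muscle donor. The mean fell from 66.9 ± 24.7 CPM (n = 10) to 0.669 ± 0.404 CPM (n = 9), a log2 fold change of -6.53 ± 0.27 (SE), adjusted p = 6.05e-16. The low level was kept in passaged FAPs, with pooled values of 0.199 CPM at P2, 0.181 CPM at P5 and 0.138 CPM at P8. SFRP2, a binder of Wnt ligands that is also known to act on extracellular matrix enzymes, showed the same kind of change. In P0 FAPs it ranged from 0 to 1.36 CPM with a median of 0.159, again without overlap with muscle. Its mean fell from 50.7 ± 24.8 to 0.353 ± 0.469 CPM (log2 fold change -7.17 ± 0.42, adjusted p = 2.23e-12, lower in 9 of 9 donors).

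SFRP4 changed in the other direction. Its level in P0 FAPs was 614 CPM in the lowest donor, 1226 at the median and 2028 in the highest, and the muscle and P0 ranges overlapped. Within donors it was higher at P0 in 9 of 9, with means of 642 ± 273 and 1283 ± 477 CPM (log2 fold change 1.11 ± 0.28, adjusted p = 0.00121). The change lay just past the fold threshold: it was 0.99 with library sizes in place of TMM factors and 0.89 after thinning to equal depth, and the call was then lost. With FAPs thinned to 2000 UMIs per cell, 42.9% had an SFRP4 UMI in muscle and 75.5% at P0 (58.8% and 95.9% without thinning).

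The remaining 4 members tested in FAPs did not pass. WNT5A had means of 10.2 ± 5.03 CPM in muscle and 18.8 ± 7.12 CPM at P0 and was higher in 7 of 9 donors (log2 fold change 0.81 ± 0.37, adjusted p = 0.0525). With no filter on low counts it passed, at 1.08 and an adjusted p of 0.0194. SFRP1 had means of 78.2 ± 41.1 and 53.7 ± 14.1 CPM (log2 fold change -0.37 ± 0.29, adjusted p = 0.249), and its donor ranges overlapped. DKK3 had means of 36.9 ± 14.9 and 36.8 ± 6.19 CPM (0.15 ± 0.16, adjusted p = 0.418). RSPO3 had means of 6.35 ± 10.1 and 7.65 ± 5.88 CPM, and at this spread between donors no difference was detectable (-0.01 ± 0.69, adjusted p = 0.994), though it was higher at P0 in 7 of 9 donors. Of these, donors 1, 6 and 9 had 0 RSPO3 UMIs in muscle FAPs, and donor 5 was at 3.97 CPM in muscle and 4.01 CPM at P0. Donor 10 held 41 of the 64 RSPO3 UMIs of muscle FAPs, and without that donor the means were 3.32 ± 3.52 and 6.82 ± 5.70 CPM, with too few counts left in muscle for the test. FRZB had too few counts for the test: its 25 UMIs in muscle FAPs were followed by 3 UMIs among 136219244 at P0, a pooled level of 0.0220 CPM (Poisson interval 0.00454 to 0.0644). No FRZB UMI was found in P2 FAPs, which allows a level of up to 0.0199 CPM.

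**Figure D2:**
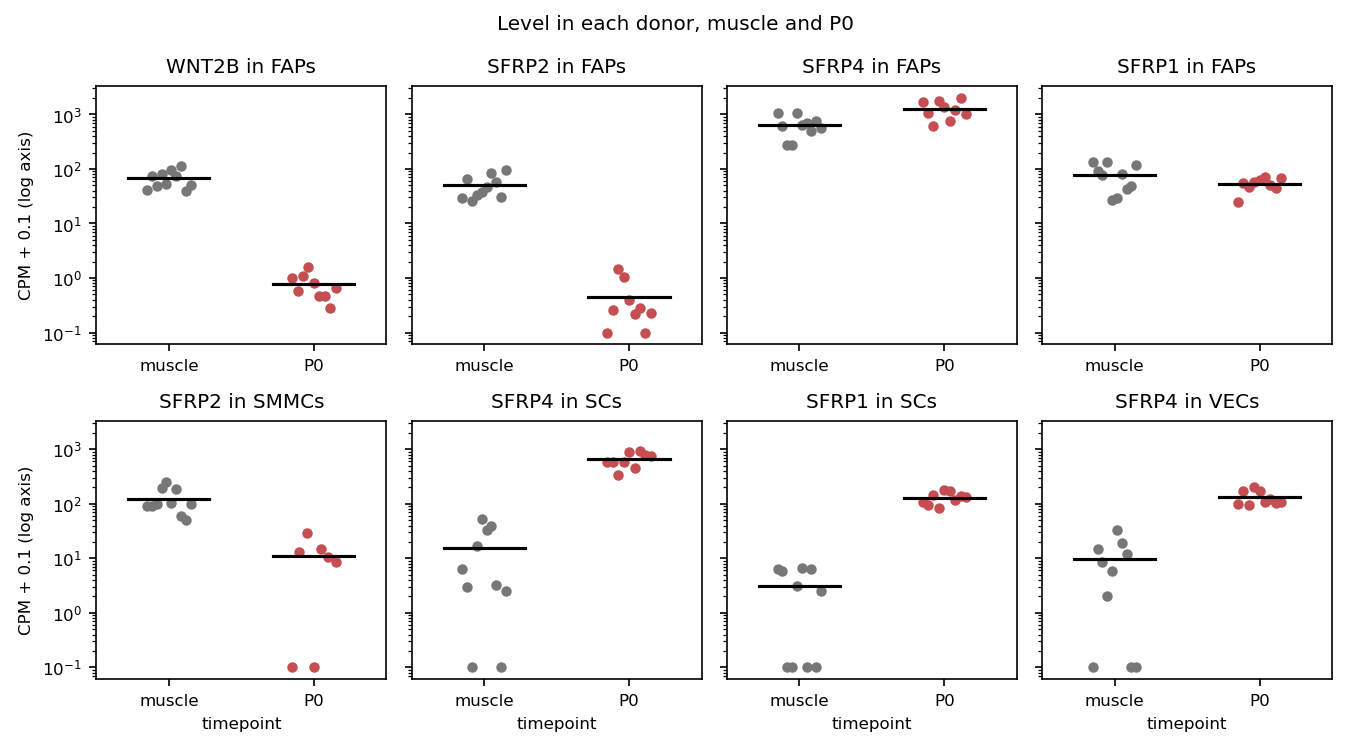
Level per donor (points, CPM + 0.1, log axis) in fresh muscle and at P0, with means as bars, of WNT2B, SFRP2, SFRP4 and SFRP1 in FAPs, SFRP2 in SMMCs, SFRP4 and SFRP1 in SCs, and SFRP4 in VECs. The muscle and P0 donors are apart for WNT2B and SFRP2 in FAPs and for SFRP1 and SFRP4 in SCs, and overlap for SFRP1 and SFRP4 in FAPs.

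In SCs, 34.3% of 5221 genes were called between P0 and muscle. Of the 8 members only SFRP1 and SFRP4 had enough counts in SCs to be tested, and both were called. In muscle SCs they had 10 and 52 UMIs over 10 donors, so they passed the filter through P0 and a rise was the only call they could give. SFRP1 ranged from 83.0 to 180 CPM in P0 SCs (median 136), far above every muscle donor. Its mean rose from 3.03 ± 2.94 to 130 ± 32.8 CPM (log2 fold change 5.14 ± 0.30, adjusted p = 1.18e-13, higher in 9 of 9 donors). SFRP4 ranged from 338 to 948 CPM in P0 SCs (median 594). Its mean rose from 15.6 ± 19.1 to 663 ± 199 CPM (5.14 ± 0.38, adjusted p = 3.9e-10), and the donor ranges did not overlap. Of the SCs thinned to 2000 UMIs, 1.55% had an SFRP4 UMI in muscle and 61.6% at P0 (2.94% and 95.8% without thinning).

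The FAP markers moved in SCs as well. Their summed level was 58.8 to 863 CPM over donors in muscle SCs and 979 to 2015 CPM in P0 SCs, and 3 of the 3 tested rose, while in FAPs themselves the sum was 21434 to 25982 CPM in muscle and 2882 to 4551 CPM at P0, with 4 of 4 lower. None of the 4 was at 0 in P0 SCs. In pooled counts, P0 SCs held 39.7% of the FAP level of DCN, 76.1% of that of LUM, 21.7% of that of PDGFRA and 8.61% of that of DPT, against 54.7% for SFRP4, 149% for WNT5A and 257% for SFRP1. SFRP1 and WNT5A thus had a higher pooled level in SCs than in FAPs of the same library, and SFRP4 lay within the range of the FAP markers. The part of free or shared FAP RNA in the SFRP4 level of SCs was not tested.

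The change from muscle to P0 differed between SCs and FAPs for 4 of the 6 members tested in a fit with an interaction of type and timepoint, where 20.0% of 8751 genes were called. The log2 change in SCs exceeded that in FAPs by 5.72 ± 0.57 for SFRP1 (adjusted p = 3.05e-10), by 4.24 ± 0.52 for SFRP4 (3.28e-08) and by 2.07 ± 0.76 for WNT5A (0.0276). With no filter on low counts, the adjusted p of WNT5A was 0.05 and the call was lost. Muscle SCs held 10 SFRP1, 52 SFRP4 and 11 WNT5A UMIs, so the SC side of each difference rests on few counts. In SCs alone, SFRP1 and SFRP4 could be called only as a rise, and WNT5A had too few counts for a test. For WNT2B the difference was 7.41 ± 1.10 (adjusted p = 6.23e-07), but the gene entered this fit through the 514 UMIs of muscle FAPs, with 1 UMI in muscle SCs and 27 in P0 SCs, so the value restates its fall in FAPs. It was not called for DKK3 (0.97, adjusted p = 0.0801) or SFRP2 (1.82 ± 4.07, adjusted p = 0.762), which had no UMI in P0 SCs.

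SFRP4 was also higher at P0 in the endothelial types and in SMMCs. In VECs, 35.1% of 5896 genes were called, and so were both members tested. Muscle VECs held 33 SFRP4 and 21 DKK3 UMIs against 1482 and 385 at P0, so both entered the test through P0. SFRP4 had a mean of 9.51 ± 10.7 CPM in muscle VECs and 132 ± 40.2 CPM at P0 (log2 fold change 3.89 ± 0.37, adjusted p = 6.51e-09), and DKK3 had 5.11 ± 9.90 and 29.98 ± 10.5 CPM (2.52 ± 0.48, adjusted p = 7.48e-05). The donor ranges of DKK3 in VECs overlapped, at 0 to 32.7 CPM and 13.2 to 42.7 CPM. Its muscle value rested on donor 7, with 14 of the 21 UMIs: without that donor the muscle mean was 2.04 ± 2.10 CPM, the highest muscle donor was at 4.85 CPM, below every P0 donor, and the gene had too few counts for the test. In LECs, where 29.6% of 3034 genes were called, SFRP4 was the only member tested and had means of 40.1 ± 30.5 CPM (n = 4) and 199 ± 83.7 CPM (n = 7), without overlap (2.19 ± 0.59, adjusted p = 0.00746). Muscle LECs held 28 SFRP4 UMIs over all donors against 338 at P0, so SFRP4 entered this test through P0 too. In SMMCs 36.4% of 3454 genes were called, and both members tested passed, in opposite directions. SFRP2, which entered the test through muscle, fell in SMMCs: the 7 donors at P0 had levels of 0 to 28.9 CPM with a median of 10.4, below all 10 muscle donors. Its mean fell from 122 ± 64.7 to 10.7 ± 9.90 CPM (-3.69 ± 0.43, adjusted p = 3.85e-07, lower in 7 of 7 donors). SFRP4 in SMMCs rose from 2.96 ± 6.12 to 212 ± 111 CPM (6.15 ± 0.56, adjusted p = 9.52e-09). Muscle SMMCs held 5 SFRP4 UMIs against 1132 at P0, so SFRP4 entered the test through P0. The directions of both members in SMMCs were thus fixed by being tested.

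The FAP markers did not all move with SFRP4 in these types. In VECs the pooled SFRP4 level was 8.07 CPM in muscle and 121 CPM at P0. There DCN had 249 and 256 CPM, LUM 30.3 and 43.2, PDGFRA 14.9 and 20.8, and DPT 13.0 and 5.15. In SMMCs DCN rose from 167 to 584 CPM while DPT had 14.4 and 7.28 CPM, and in LECs DCN rose from 31.6 to 354 CPM. At P0 the pooled level of SFRP4 was 9.54% of that in FAPs in VECs, where DCN was at 8.92% and LUM at 12.2%. It was 15.5% in SMMCs (DCN 20.4%, LUM 16.9%), 14.4% in LECs (DCN 12.4%) and 40.9% in macrophages (DCN 37.1%, LUM 46.0%). The level of SFRP4 relative to FAPs was thus near that of DCN and LUM in each of these types. PDGFRA and DPT were lower, at 7.38% and 7.15% in VECs and at 10.1% each in SMMCs. In the glial cells of P0 SFRP4 was at 36.5%, above DCN (20.1%), LUM (21.9%), PDGFRA (13.8%) and DPT (3.37%). In muscle DCN was at 1.31% in VECs, relative to a FAP level of 18945 CPM there and 2867 CPM at P0. Of the P0 VECs thinned to 2000 UMIs, 23.3% had an SFRP4 UMI (71.7% without thinning) and 38.6% a DCN UMI. For DKK3 the picture was not the same in VECs, SMMCs and LECs, where its pooled level was 87.9%, 100.8% and 66.5% of that in FAPs. In macrophages DKK3 was at 43.9%, between DCN and LUM. The part of free FAP RNA in these levels was not tested.

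The second comparison asked how SCs and FAPs of the same timepoint differed. In muscle, 19.9% of 4450 genes were called, and so were both members tested, SFRP4 and WNT2B, which were lower in SCs in 10 of 10 donors without overlap. Muscle SCs held 52 and 1 of their UMIs, so both entered the test through FAPs. The log2 difference was -5.20 ± 0.44 for SFRP4 (642 ± 273 CPM in FAPs, 15.6 ± 19.1 CPM in SCs, adjusted p = 2.58e-09) and -6.90 ± 0.48 for WNT2B (66.9 ± 24.7 against 0.244 CPM, adjusted p = 2.26e-12). At P0, 10.7% of 10827 genes and 3 of 5 members were called. SFRP1 was higher in SCs in 9 of 9 donors without overlap, at 130 ± 32.8 against 53.7 ± 14.1 CPM (log2 difference 1.29 ± 0.18, adjusted p = 7.7e-06). RSPO3 was lower in SCs, from 0.407 to 4.15 CPM over donors (median 1.10) against 1.54 to 20.1 CPM in FAPs (median 6.19), with a log2 difference of -2.23 ± 0.51 (adjusted p = 0.00153) and overlapping ranges. DKK3 was lower as well, at 18.0 ± 6.20 against 36.8 ± 6.19 CPM (-1.08 ± 0.16, adjusted p = 1.34e-05), without overlap. SFRP4 was lower in SCs in 9 of 9 donors (-0.96 ± 0.24, adjusted p = 0.00373), under the fold threshold, and WNT5A did not pass (0.49, adjusted p = 0.152).

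At P2, 14.0% of 11471 genes and the same 3 members of 5 were called, in the same directions. RSPO3 had means of 10.2 ± 6.12 CPM in FAPs and 0.906 ± 0.843 CPM in SCs (log2 difference -3.81 ± 0.47, adjusted p = 5.91e-06). Its donor ranges overlapped, at 0 to 17.7 CPM in FAPs and 0 to 2.70 CPM in SCs. Donor 5 lay in the other direction, with 0 CPM in 19 FAPs and 1.70 CPM in SCs. DKK3 had 134 ± 49.1 and 58.7 ± 40.3 CPM (-1.38 ± 0.45, adjusted p = 0.025, lower in SCs in 8 of 8 donors with both types). SFRP1 had 102 ± 58.4 and 254 ± 144 CPM, higher in SCs in 8 of 8 donors (1.14 ± 0.43, adjusted p = 0.0498). The calls of SFRP1 and DKK3 were less stable than that of RSPO3: SFRP1 was lost when pseudobulks needed 30 cells (0.69, adjusted p = 0.142) or without a filter (adjusted p = 0.0739), and DKK3 after thinning to equal depth (-1.28, adjusted p = 0.0821). SFRP4 (0.12, adjusted p = 0.944) and WNT5A (-0.40, adjusted p = 0.564) did not pass. The types were drawn from clusters of this same expression, so a difference between types is not independent of how the types were drawn.

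The third comparison followed each type over the passages. The P0 cells of all donors were unsorted and grown on fibronectin. In the donors sorted afterwards, the step to P2 therefore also held sorting and a new coating, which cannot be told apart from passage. In the FAPs of the 6 donors of FAP and unsorted cultures, 23.3% of 11439 genes and 2 of 5 members were called between P2 and P0, and both rose. DKK3 in P2 FAPs was 191, 172 and 186 CPM in the FAP cultures of donors 4, 7 and 8 and 142, 106 and 133 CPM in the unsorted cultures of donors 1, 2 and 9. Every one of these was above every P0 donor, and the mean rose from 38.6 ± 4.47 to 155 ± 33.3 CPM (log2 fold change 2.15 ± 0.13, adjusted p = 1.93e-08). SFRP1 was 86.8, 85.7 and 164 CPM in the FAP cultures and 96.4, 176 and 155 CPM in the unsorted cultures. It was thus higher than at P0 in 6 of 6 donors without overlap, with a mean that rose from 49.2 ± 15.4 to 127 ± 42.1 CPM (1.53 ± 0.26, adjusted p = 0.00016).

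RSPO3 had means of 7.27 ± 6.61 CPM at P0 and 12.7 ± 4.39 CPM at P2 in these FAPs (0.97 ± 0.45, adjusted p = 0.0691), and with the donor as a block it passed, at 1.16 and an adjusted p of 0.0205. SFRP4 had means of 1232 ± 549 and 1973 ± 1003 CPM, under the fold threshold (0.82, adjusted p = 0.0473). WNT5A had means of 21.6 and 17.0 CPM and did not pass (-0.19, adjusted p = 0.517). Between P8 and P2 only 1.12% of 11102 genes were called in FAPs, and RSPO3 was the 1 member of 5 among them. Its level at P8 was 59.7, 34.0 and 77.5 CPM in the FAP cultures of donors 4, 7 and 8 and 18.8, 22.0 and 42.2 CPM in the unsorted cultures of donors 1, 2 and 9. At P2 the same donors had 17.3, 8.79 and 17.7 CPM in the FAP cultures and 6.89, 12.001 and 13.7 CPM in the unsorted cultures, all below the lowest P8 value. The mean rose to 42.4 ± 22.7 CPM (log2 fold change 1.72 ± 0.34, adjusted p = 0.0223), and the P5 values, 15.3 to 47.3 CPM in FAP cultures and 9.47 to 18.8 CPM in unsorted cultures, overlapped with both.

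SFRP1 did not keep its P2 level in every donor. At P8 it was 17.3, 72.6 and 141 CPM in the FAP cultures and 10.8, 119 and 14.1 CPM in the unsorted cultures, lower than at P2 in 6 of 6 donors. This did not pass the test, with means of 127 ± 42.1 and 62.5 ± 57.6 CPM (-1.05 ± 0.60, adjusted p = 0.496). DKK3 had means of 155 and 157 CPM (0.02, adjusted p = 0.99), and SFRP4 had 1973 and 1315 ± 1188 CPM (-0.58, adjusted p = 0.76). Neither these nor WNT5A (0.30, adjusted p = 0.798) passed.

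**Figure D3:**
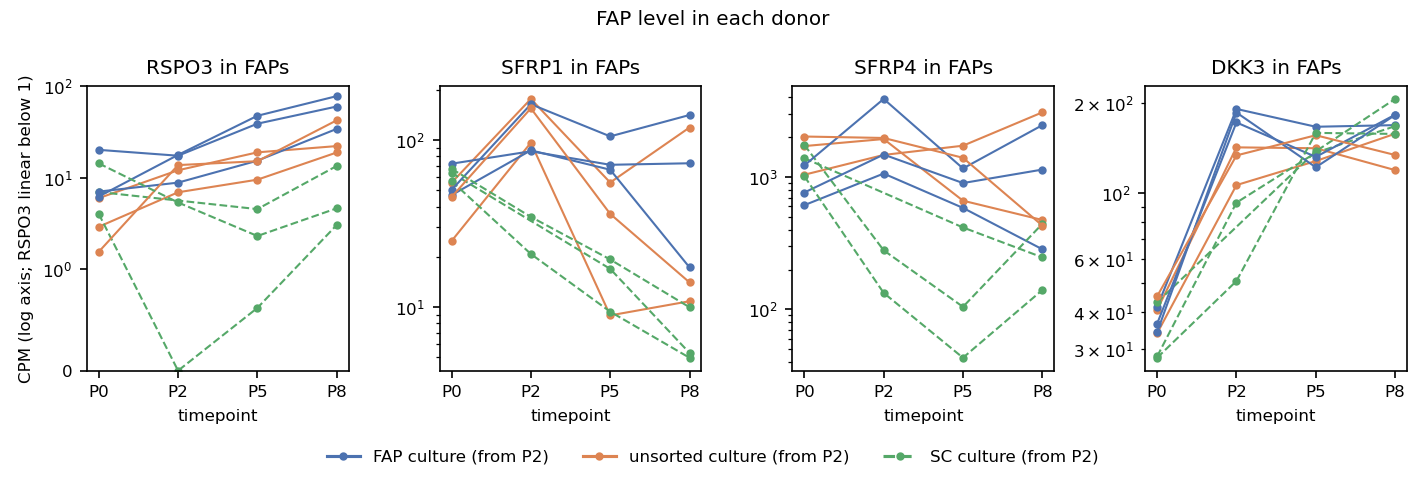
Level per donor in FAPs (CPM, log axis) of RSPO3, SFRP1, SFRP4 and DKK3 from P0 to P8. Each line is 1 donor, coloured by its culture, with SC cultures dashed; donor 6 had no FAP pseudobulk at P2. RSPO3 in FAP and unsorted cultures was at 6.89 to 17.7 CPM at P2 and 18.8 to 77.5 CPM at P8, and at 3.03 to 13.4 CPM in SC cultures at P8.

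In the SCs of the 6 donors of SC and unsorted cultures, 8.73% of 9913 genes were called between P2 and P0, and 0 of 4 members by edgeR (1 at an unadjusted p below 0.05, and 1 by DESeq2). DKK3 was higher at P2 in 6 of 6 donors, with means of 18.5 ± 7.22 and 43.6 ± 34.3 CPM (1.27 ± 0.57, adjusted p = 0.107), and was the member called by DESeq2 (1.29, adjusted p = 0.0388). WNT5A had means of 25.6 and 15.6 CPM and was lower in 6 of 6 donors (-0.82, adjusted p = 0.305), and with the donor as a block it passed (-1.11, adjusted p = 0.0314). SFRP1 (0.54, adjusted p = 0.209) did not pass. SFRP4 had means of 703 ± 127 and 1523 ± 1911 CPM (1.17 ± 0.90, adjusted p = 0.351), and the sign turned with the donor as a block (-0.50, adjusted p = 0.783). Between P5 and P2 in SCs, 0.195% of 10781 genes and 0 of 4 members were called by edgeR, with 0 at an unadjusted p below 0.05 and 0 by DESeq2. The log2 fold changes were 0.04 ± 0.28 for SFRP1 (adjusted p = 0.965), -1.19 ± 1.26 for SFRP4 (0.655), -0.54 ± 0.74 for WNT5A (0.746) and -0.25 ± 0.56 for DKK3 (0.869). The spread of SFRP4 among P2 SCs followed the cultures, which were therefore compared.

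The SCs of SC cultures and of unsorted cultures were compared at P2 and P5, comparisons chosen after the values were seen. At P2, 7.51% of 11378 genes and 4 of 5 members were called, all lower in SC cultures and without overlap. SFRP4 was 36.7, 290.5 and 112 CPM in the SC cultures of donors 5, 6 and 10 and 4057, 764 and 3879 CPM in the unsorted cultures of donors 1, 2 and 9. The log2 difference was -4.43 ± 0.99 (adjusted p = 0.0362), and the call was lost without a filter (adjusted p = 0.104) or after thinning to equal depth (adjusted p = 0.0587). WNT5A was 2.61, 5.86 and 7.41 CPM in the SC cultures and 29.9, 17.6 and 30.1 CPM in the unsorted cultures (-2.41 ± 0.41, adjusted p = 0.0193). SFRP1 was 82.0, 116 and 133 CPM in SC cultures and 209.8, 303 and 229 CPM in unsorted cultures (-1.28 ± 0.21, adjusted p = 0.0171). DKK3 was 7.99, 22.7 and 15.7 CPM in SC cultures and 88.9, 46.3 and 80.2 CPM in unsorted cultures (-2.34 ± 0.42, adjusted p = 0.0216). RSPO3 was low in both, at 0.870 and 0.698 CPM (0.25 ± 1.02, adjusted p = 0.896).

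The number of calls depended on single donors: with donor 1 or donor 9 left out, 0 members were called by edgeR, with donor 10 left out 2, and with donor 5 left out 3. The calls among all genes also ran from 1 to 1114 with a donor left out. Over the 6 donors left out in turn, the log2 difference was -5.40 to -3.97 for SFRP4, -2.75 to -2.08 for WNT5A, -1.43 to -1.10 for SFRP1 and -2.71 to -2.02 for DKK3. The FAP markers moved in these SCs too. LUM (1329 CPM in unsorted and 512 CPM in SC cultures, -1.49, adjusted p = 0.0156) and DPT (-1.78, adjusted p = 0.033) were lower in SC cultures, DCN (-1.37, adjusted p = 0.106) and PDGFRA (-1.37, adjusted p = 0.101) did not pass, and the summed level of the 4 was 1171 to 2760 CPM in SC cultures against 2681 to 6235 CPM in unsorted cultures. None of the 4 was at 0. Their part in the difference was not tested.

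At P5, 3.97% of 10947 genes and 2 of 4 members were called. SFRP4 was 27.0, 76.2 and 29.5 CPM in the SC cultures and 903, 886 and 2141 CPM in the unsorted cultures (-4.92 ± 0.62, adjusted p = 0.0125). WNT5A was 2.36, 5.06 and 3.91 CPM in the SC cultures and 18.2, 18.2 and 22.7 CPM in the unsorted cultures (-2.36 ± 0.27, adjusted p = 0.00298). Both were again apart between the cultures, and SFRP4 lost its call with donor 5 or donor 10 left out, with log2 differences of -5.55 to -4.37 over the donors left out in turn. The cultures were those of the same donors as at P2, so the P5 values are not independent of the P2 values. DKK3 was 22.1, 37.2 and 17.1 CPM against 49.8, 42.8 and 54.4 CPM, also apart, but did not pass (-0.99 ± 0.28, adjusted p = 0.0839) unless donor 6 was left out (-1.36, adjusted p = 0.00351). SFRP1, lower in SC cultures at P2, had means of 187 and 183 CPM at P5 (0.00, adjusted p = 0.999). RSPO3 had too few counts for the test, at 0.567, 0.980 and 0.631 CPM in the SC cultures and 5.13, 1.30 and 0.473 CPM in the unsorted cultures. Of the FAP markers 0 of 4 were called by edgeR or DESeq2 at P5, with 1 at an unadjusted p below 0.05, DCN having means of 1467 CPM in unsorted and 1309 CPM in SC cultures (-0.20, adjusted p = 0.603), and the summed level was 2070 to 2793 CPM in SC and 2400 to 3127 CPM in unsorted cultures.

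**Figure D4:**
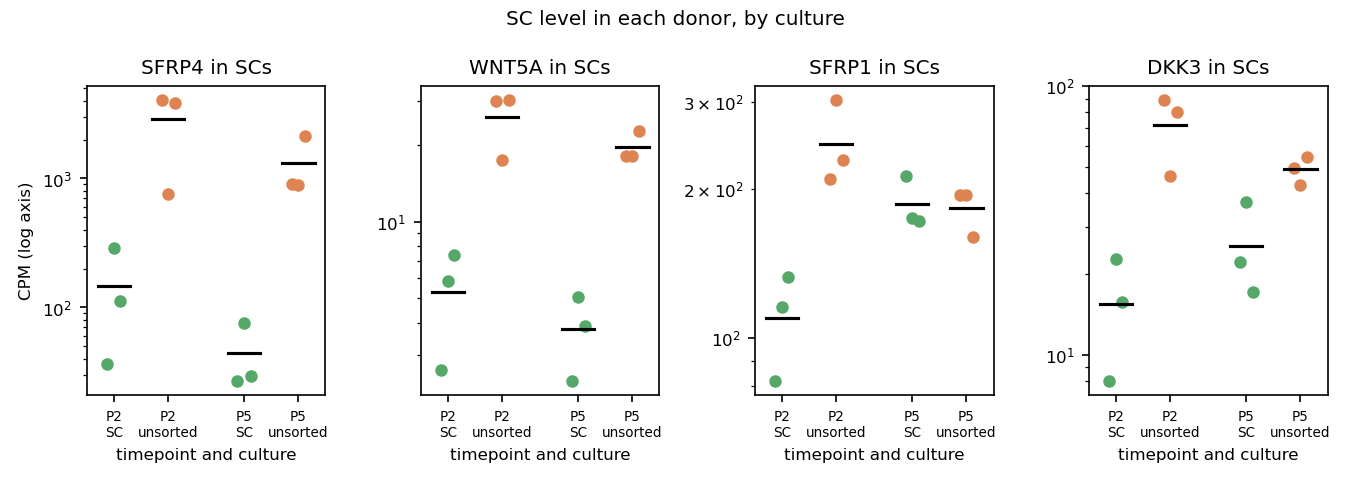
Level per donor in SCs (points, CPM, log axis; bars are means) of SFRP4, WNT5A, SFRP1 and DKK3 in SC cultures and unsorted cultures at P2 and P5, with 3 donors in each. SFRP4 and WNT5A were apart between the cultures at both passages, and SFRP1 at P2 but not at P5.

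FAPs were also compared between cultures. Between the FAP and unsorted cultures at P2, 0.0170% of 11786 genes (2 genes) and 0 of 5 members were called by edgeR, with 1 member at an unadjusted p below 0.05 and 0 called by DESeq2. That member was DKK3, with the 3 FAP cultures above the 3 unsorted cultures at 183 ± 9.75 and 127 ± 18.7 CPM (0.45 ± 0.11, adjusted p = 0.31). SFRP1 (-0.43, adjusted p = 0.729), SFRP4 (0.20, adjusted p = 0.915), WNT5A (-0.59, adjusted p = 0.639) and RSPO3 (0.33, adjusted p = 0.795) did not pass. The FAPs that had grown in SC cultures were set against those of FAP cultures at P8, a comparison also chosen after the values were seen, in which 1.75% of 9911 genes and 0 of 5 members were called by edgeR, with 4 members at an unadjusted p below 0.05 and 3 called by DESeq2.

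RSPO3 was 3.03, 13.4 and 4.60 CPM in the FAPs of the SC cultures of donors 5, 6 and 10, against 59.7, 34.0 and 77.5 CPM in those of FAP cultures (-2.96 ± 0.55, adjusted p = 0.0548 by edgeR and 1.45e-08 by DESeq2). SFRP1 was 4.97 to 9.97 CPM in SC cultures and 17.3 to 141 CPM in FAP cultures (-3.63 ± 0.82, adjusted p = 0.0898 by edgeR and 0.000957 by DESeq2). WNT5A lay in the other direction, at 26.2, 38.3 and 56.5 CPM against 25.3, 17.6 and 14.5 CPM (1.00 ± 0.29, adjusted p = 0.129 by edgeR and 0.0267 by DESeq2). For each of these genes the cultures did not overlap. DKK3 had means of 177 and 178 CPM (-0.06, adjusted p = 0.822), and SFRP4 277 ± 154 and 1299 ± 1101 CPM (-2.28, adjusted p = 0.223). With donor 4 left out edgeR called 3 members, with donor 6 left out 1, and the calls among all genes ran from 1 to 523 with a donor left out. The summed FAP markers of these cells were at 3978 to 6512 CPM in SC cultures and 7903 to 20001 CPM in FAP cultures, and their part in the differences was not tested.

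The rest of the Wnt pathway was counted from lists of genes by role. The lists were chosen with earlier results of these data known, so their shares are descriptions and no test of a list. In FAPs between muscle and P0, 2 of 17 other Wnt ligands were tested, against 43.4% of all genes called, and both were called. These were WNT11, a ligand of the planar polarity branch, which fell from 68.5 to 0.4664 CPM (log2 fold change -7.00, adjusted p = 1.89e-15), and WNT5B (-2.96). Both entered the test through muscle, where they were higher, and the other 15 were too low to be tested. Of 15 other secreted modulators 3 were tested, of which DKK2, an antagonist that binds LRP5 and LRP6, fell from 64.3 to 0.421 CPM (-7.14) and DKKL1 rose (3.85). Of the 28 genes of Wnt secretion and reception 14 were tested, 3 rose and 7 fell, with a median log2 fold change of -1.28. Over all genes tested, 43.4% were called (1928 rose and 2069 fell) and the median was 0.0255. The 3 that rose were the alternative receptors PTK7 (1.75), RYK (1.36) and ROR2 (1.06), and the largest falls were those of the glypican GPC3 (-6.42), the receptor FZD2 (-3.68) and the co-receptor LRP6 (-3.03).

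Against the same 43.4% of all genes called in FAPs, 2 of 13 beta-catenin pathway components tested were called: APC, part of the destruction complex, rose (1.71) and the transcription factor TCF7L2 fell (-1.77), with a median of -0.12. Of 5 target genes tested the cyclin CCND1 rose (2.45) and ID2 (-3.39), BAMBI (-3.04) and MYC (-1.06) fell, with a median of -1.06. Of 4 planar polarity components tested, PRICKLE1 (-1.80), DAAM1 (-1.47) and DAAM2 (-1.34) fell, with a median of -1.40. In SCs the same lists gave 6 receptor genes tested, of which PTK7 (2.13) and RYK (1.52) rose and 4 fell, led by GPC3 (-5.97), FZD2 (-2.20) and LRP5 (-1.78), with a median of -1.45, against 34.3% called and a median of -0.00503 over all genes. APC rose (1.22), TCF7L2 fell (-1.20) and DAAM1 fell (-1.74) in SCs, and 0 of the 2 target genes tested were called by edgeR or DESeq2, with 2 at an unadjusted p below 0.05. The ligand and modulator lists had no gene with enough counts in SCs.

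From P0 to P2 in FAPs, 23.3% of all genes were called, of which 1551 rose and 1120 fell. Of 17 secretion and receptor genes tested 5 rose (median 0.28 against 0.0417 over all genes), a share near that background, led by FZD1, from 8.03 to 98.6 CPM (3.76, adjusted p = 6.19e-09), FZD6 (1.84) and GPC4 (1.77). Of 7 target genes tested 4 rose (median 1.5), led by AXIN2, a feedback inhibitor of the beta-catenin branch, from 0.391 to 1.81 CPM (2.41, adjusted p = 1.85e-05), ID2 (2.34) and BAMBI (1.92). TCF7L1 (1.04) was the 1 component of 17 called, and 0 of 6 planar polarity components were called by edgeR or DESeq2, with 5 at an unadjusted p below 0.05. The ligand WNT7B fell (-6.58), the modulator CTHRC1 rose (2.24) and SFRP5 fell (-1.86). In SCs over the same interval 4 receptor genes of 15 rose and 1 fell (median 0.24), against 8.73% called and a median of -0.0192 over all genes, with GPC4 (2.38), ROR2 (2.17) and FZD1 (1.54) up and TSPAN12 (-1.54) down. Among ligands WNT9A rose (3.2) and WNT7B fell (-3.26), CTHRC1 rose (1.6), and NOTUM, a secreted enzyme that inactivates Wnt ligands and is itself a target gene, fell (-3.26). Among target genes CCND1 (3.89) and ID2 (1.09) rose. Of the 16 pathway components and 5 planar polarity components tested in SCs, 0 were called by edgeR or DESeq2, with 7 and 1 at an unadjusted p below 0.05.

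From P2 to P8 in FAPs, where RSPO3 rose, 1 of 2 other ligands and 2 of 4 other modulators tested rose as well, against 1.12% of all genes called. These were the R-spondin RSPO1 (0.718 to 3.67 CPM, log2 fold change 2.29, adjusted p = 0.00423), DKK2 (2.97, adjusted p = 0.0289) and the ligand WNT2 (1.77 to 9.79 CPM, 2.45, adjusted p = 0.0313). In the P5 SCs of SC cultures, where SFRP4 and WNT5A were lower than in unsorted cultures, 3 of 4 other modulators tested were higher, against 3.97% of all genes called (100 higher and 335 lower). These were SFRP5, a further frizzled-related protein (1.99 CPM in unsorted and 33.4 CPM in SC cultures, 3.89, adjusted p = 0.00053), DKK2 (17.0 and 72.7 CPM, 2.05, adjusted p = 0.00153) and CTHRC1 (1.44, adjusted p = 0.0143). The receptor ROR2 was higher too (1.69). The comparison of these cultures was chosen after the values were seen, and the lists with earlier results known, so these shares are descriptions only. Between SCs and FAPs at P0, where 10.7% of all genes were called, 2 of 2 other ligands and 3 of 4 other modulators tested were called. NOTUM (4.21), SFRP5 (2.48) and the ligands WNT5B (2.48) and WNT7B (1.80) were higher in SCs and CTHRC1 was lower (-1.27). At P2, where 14.0% of all genes were called, 3 of 3 other ligands and 2 of 5 other modulators tested were called. SFRP5 (4.42), DKK2 (3.82), WNT9A (3.60) and WNT5B (2.93) were higher in SCs and WNT2 was lower (-2.55).

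Over the 19 combinations of cell type and timepoint with pseudobulks, the mean levels of SFRP4 and WNT5A were closest among the members (Pearson r = 0.946 on log2(CPM + 1)), followed by SFRP1 and SFRP4 (0.892) and SFRP1 and WNT5A (0.872). WNT2B and FRZB had an r of 0.809, WNT2B and SFRP2 of 0.554, and SFRP2 and SFRP4 of -0.204. These combinations share donors, and those of 1 timepoint share a library, so the values are descriptions. Among genes with at least 50 CPM in some combination, those most like SFRP4 were PTX3 (0.943), CFB (0.927) and ECE2 (0.924), and those most like WNT5A were CLMP (0.959), CFB (0.947) and SFRP4. For WNT2B they were SMOC2 (0.981), BGLAP (0.970) and SPP2 (0.970), for SFRP2 LRRC17 (0.974), BMP5 (0.957) and PDE1A (0.956), and for FRZB PI16 (0.884), SPP2 (0.874) and SULT1C4 (0.847). The mean FRZB level was above 1 CPM only in muscle FAPs (3.23 CPM, 25 UMIs) and muscle lymphocytes (6.12 CPM, 4 UMIs). The correlations of FRZB, also that with WNT2B, therefore rest on these low levels. DKK3 was most like P4HA2 (0.954), FKBP10 (0.949) and P3H3 (0.920), all of which act on collagen in the endoplasmic reticulum. RSPO3 was most like THBS2 (0.905), CRABP2 (0.893) and CPZ (0.872), and SFRP1 most like BDKRB2 (0.900), MMP2 (0.894) and SFRP4.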

How the data were processed

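The authors deposited whole-number UMI counts per gene and cell barcode for 5 libraries, made with Cell Ranger 6.0.1 per the submitters' processing notes, and a table of cells with the donor (by genotype, doublets removed), cell type and quality filter. From it, 11 columns of other values, the combined expression table and the authors' lists of compared genes were not used. Donors were mapped by genotype number, and culture types follow the donors. The members and gene lists were chosen with earlier results of these data known. The comparisons of SC with unsorted cultures at P2 and P5 and of SC with FAP cultures at P8, the scaling by library size without TMM factors, and the fits without donor 7 (VECs) or donor 10 (FAPs) between muscle and P0, were chosen after the values were seen.

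Counts were summed per donor, type and timepoint (at least 10 cells) into pseudobulks and fitted across all genes with edgeR 4.0.16 (quasi-likelihood F test, robust, TMM, filterByExpr, R 4.3.3), without a block. P-values were adjusted by Benjamini-Hochberg over all genes tested, and calls needed a log2 fold change beyond 1 in size with an adjusted p under 0.05. The SE is the fold change over the root of F. Alternatives were DESeq2 1.42.0, no filter, at least 30 cells, thinning of counts to the smallest pseudobulk, the donor as a block, and leaving out each donor where a group held 3 to 5. The depth of pseudobulks was 56121 to 450674 UMIs in muscle SCs and LECs and 2268755 at most in muscle FAPs, against 10321593 to 23061306 in P0 FAPs, so low levels are bounded less tightly in muscle. Same-numbered donors are the same animal, and the correlation of their deviations from the group means was -0.139 to 0.73 over comparisons. Tests were checked on simulated counts. Shares of cells are the expected values after thinning to 2000 UMIs per cell. Intervals, and the upper limit that a count of 0 allows (3 counts), cover counting error only. Every member tested is named in each comparison, of each list at most the 3 called genes with the largest change in each direction, and of likeness the 3 genes with the highest Pearson r. Python 3.11.15, pandas 2.3.3, numpy 2.4.6 and scipy 1.17.1 were used.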

Additional observations from a re-analysis of the deposited data

Results flagged for a closer look

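In 64 groups of 4 to 10 donors, the highest or lowest donor was compared with the others by Dixon's criterion. The groups were not all the combinations of gene, type and timepoint. Chance passes this criterion in about 1 of 20 groups, and 2 donors stood apart. SFRP4 in muscle lymphocytes was at 155 CPM in donor 6 and at most 18.9 CPM in the other donors. The 15 cells of that pseudobulk also held all 5 WNT2B UMIs of the lymphocytes (86.1 CPM), and the summed FAP markers were at 982 CPM there (DCN 585.5, DPT 207, PDGFRA 103 and LUM 86.1 CPM), against 18.5 to 1650 CPM over all donors, with 3 donors higher. The part of FAP RNA in this value was not tested. SFRP4 in P2 FAPs was at 3900 CPM in donor 8, from a FAP culture, and at most 1978 CPM in the other 5 donors of FAP and unsorted cultures. Donors not flagged could also lie far above the rest. In muscle VECs, donor 7 was at 28.1 CPM for WNT2B and 32.7 CPM for DKK3, and the others at most at 4.85 CPM. RSPO3 in muscle FAPs was at 33.6 CPM in donor 10 and at most 11.3 CPM in the others. The change from muscle to P0 differed between SCs and FAPs by the interaction test for SFRP1 (5.72 on the log2 scale), SFRP4 (4.24), WNT5A (2.07) and WNT2B (7.41), the SC change being the higher in each. Muscle SCs held 10 SFRP1, 52 SFRP4 and 11 WNT5A UMIs, so the SC side of these differences rests on few counts. WNT2B entered that fit through muscle FAPs alone, with 1 UMI in muscle SCs and 27 in P0 SCs, so its value restates the fall in FAPs.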

How the results depend on the processing

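Of 328 values of single members under alternatives other than leaving out a donor, 296 kept their direction and side of the threshold, 14 changed sign, 9 lost and 9 gained a call. Of 122 with a donor left out, 97 were unchanged in this sense, 7 changed sign, 13 lost and 5 gained a call. All 59 mean levels, taken after a cut that left out low ones, moved by less than 1 SD when 30 cells were required. Where every donor had 30 cells, as in the FAPs of muscle, P0 and P8, no donor was dropped and the mean could not move. Without thinning, 62 of 71 shares of cells moved. Scaling by library size moved the median of all genes by -0.102 in FAPs between muscle and P0, by -0.150 in FAPs between P0 and P2 and by 0.11 between SC and unsorted cultures at P2. Without a filter, many low genes enter, and 6925 genes (5 members) were called between muscle and P0 in FAPs, 5286 (7) in SCs, 5030 (6) in VECs, 4216 (4) in SMMCs and 1863 in LECs; 1473 (1) between P0 and P2 in SCs; and 2984 (7), 2052 and 2814 between SCs and FAPs in muscle, at P0 and at P2. Thinned to the smallest pseudobulk, which leaves fewer genes tested, the counts were 1627 (1), 502 (1), 1149 (1), 501 (0) and 333 between muscle and P0 in FAPs, SCs, VECs, SMMCs and LECs; 522 between P0 and P2 in SCs; 69 between P2 and P8 in FAPs; 317 (1), 417 (1) and 272 (1) between SCs and FAPs; 1 between FAP and unsorted cultures; 242 between SC and unsorted cultures at P5; 415 (1) for the difference of P0 changes; and 2 members between SC and FAP cultures at P8. With 30 cells required, 2177 genes were called in SMMCs and 4 members between SCs and FAPs in muscle. DESeq2 called 1 member between P0 and P2 in SCs, 211 genes between P2 and P8 in FAPs, 93 between P2 and P5 in SCs, 77 between FAP and unsorted cultures, and 414 (3 members) between SC and FAP cultures at P8. With the donor as a replicate block, 1 member was called between P0 and P2 in SCs, 217 genes between P2 and P8 in FAPs and 246 between P2 and P5 in SCs; beside the RSPO3 and WNT5A calls given with the results, the pairing changed no other member's call.

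Without donor 7, chosen after the values were seen, 1 member was called between muscle and P0 in VECs, since DKK3 then had too few counts, and without donor 10, also chosen then, 3 in FAPs. Leaving out each donor in turn, the comparison of FAP and unsorted cultures called 0 to 10 genes, that of SC and FAP cultures at P8 1 to 523 (0 to 3 members), and that of SC and unsorted cultures 1 to 1114 (0 to 4 members) at P2 and 140 to 488 (1 to 3) at P5. The values that changed sign were uncalled and near 0 or widely spread. For FAPs between muscle and P0, RSPO3 was 0.30 by DESeq2, 0.27 without a filter and 0.27 with the block, and DKK3 -0.14 after thinning. For SCs, SFRP4 between P0 and P2 was -0.50 with the block, and between P2 and P5 SFRP1 was -0.0101 after thinning and DKK3 0.15 with the block. DKK3 between P2 and P8 in FAPs was -0.0026 without a filter. SFRP4 between SCs and FAPs at P2 was -0.70 with 30 cells required and -0.50 with the block. SFRP1 between SC and unsorted cultures at P5 was 0.0079 by DESeq2, 0.0294 without a filter, 0.15 after thinning and 0.0283 by library size, and -0.12 to 0.0671 with a donor left out. With a donor left out, SFRP4 between FAP and unsorted cultures was -0.57 to 0.54, DKK3 between SC and FAP cultures at P8 -0.17 to 0.0256, and RSPO3 between SC and unsorted cultures at P2 -0.083 to 0.63. The cause of these changes was not tested.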

Other observations

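SFRP2 in passaged FAPs had a pooled level of 0.326 CPM at P2 and 2.59 CPM at P5. At P5 it was 1.198, 4.71 and 1.67 CPM in the FAP cultures of donors 4, 7 and 8 and 4.74, 5.39 and 1.32 CPM in the unsorted cultures of donors 1, 2 and 9. The FAPs of the SC cultures at P5 held 1 SFRP2 UMI in donor 5 (0.0617 CPM) and 0 in donors 6 and 10, which allows levels of up to 3.39 and 1.38 CPM. At P8 it was 0.489, 14.8 and 1.54 CPM in the FAP cultures, 1.34, 0.621 and 5.45 CPM in the unsorted cultures and 0.648, 0.641 and 0.512 CPM in the SC cultures of donors 5, 6 and 10, so the cultures overlapped. These levels remained below the lowest muscle FAP donor, at 25.9 CPM. No test was made of them.

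At P8 only 4 donors had enough SCs for a pseudobulk. SFRP4 in these cells was 725 CPM in donor 6 and 93.9 CPM in donor 10, both from SC cultures, and 1041 CPM in donor 1 and 2251 CPM in donor 9, both unsorted. WNT5A was 12.2, 1.27, 35.7 and 64.3 CPM in the same order, from 6, 1, 37 and 8 UMIs in 25, 36, 54 and 12 cells. Both genes were lower in these SC cultures than in the unsorted ones, from few cells and without a test. In the few SCs of FAP cultures at P2, SFRP4 was 605, 472 and 5877 CPM in donors 4, 7 and 8, from 95, 50 and 18 cells. The 48 glial cells of P0 had 83 DKK3 UMIs, a pooled level of 201 CPM, above every P0 FAP donor, of which the highest was at 45.1 CPM.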
